A study of Mus musculus with 9 samples.

Results

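The 10 genes described here are the nuclear factor I genes Nfia, Nfib and Nfix, the transcriptional repressor gene Zbtb20, the homeodomain-only gene Hopx, and 5 genes carried by gliogenic or outer radial glia, Tnc, Slc1a3, Fabp7, Aldoc and Ednrb. They are picked by name, with no measured value in the rule, and all 10 were found among 78275 gene IDs of the count table and all 10 were among the 27773 genes abundant enough to test. The libraries are RNA-seq of mouse forebrain cells labelled as cortical progenitors and neurons, from wild-type embryos electroporated in utero at E14.5. All groups received a plasmid expressing mCherry and a hairpin of the shmiRNA type, which was a scrambled sequence in sh-NT, directed at Gpc4 in sh-Gpc4 and directed at Gpc2 in sh-Gpc2. After 48 h, at E16.5, mCherry-positive cells were sorted, and each group has 3 libraries. The targeted genes encode glypicans, which are proteins carrying heparan sulfate chains and held at the cell surface by a lipid anchor. Every electroporated cell keeps its own Gpc4 and Gpc2 genes, so each group is a knockdown and not a deletion, and the labels do not name the promoter that drives the hairpin. Nothing in the labels ties libraries to separate embryos or litters, so the p-values below measure the spread between libraries, which may be technical.

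Radial glia are the stem cells of the embryonic cortex. They first give rise to neurons and later turn to making astrocytes and oligodendrocyte precursors. NFI proteins are DNA-binding factors that bind, as dimers, a palindrome of TTGGC and its complement. They are known for switching on astrocyte genes in this lineage and for helping radial glia to leave the stem cell state. Zbtb20 is a zinc finger repressor known in hippocampal patterning and in the making of astrocytes. Tenascin C, the glutamate transporter GLAST (Slc1a3), the brain lipid-binding protein (Fabp7), aldolase C and the endothelin B receptor (Ednrb) are products that radial glia and later astrocytes share. Hopx is best known as a mark of outer radial glia in gyrated cortex.

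Because NFI proteins bind TTGGC, the reference promoter windows of the members were searched for it. RefSeq windows of GRCm38.p6, 300 bases long and reaching from 250 bases before the start site to 50 bases after it, matched 9 of the 10 members and not Nfib. At least 1 TTGGC, on either strand, was present in 6 of the 9, namely Nfix, Tnc, Fabp7, Aldoc, Hopx and Ednrb. Of all 32851 windows, 46.7% hold this short motif, and so do 50.4% of the 27025 genes with a window, against 6 of 9 members. The 9 members have 15 windows, and a gene with more windows has more chances of a match. The shares per gene are therefore not fully alike. Nfix, Tnc, Aldoc and Hopx each also have a window without TTGGC. The longer form TTGGCNNNNNGCC, which contains TTGGC, was found on either strand in 1.38% of windows and 1.57% of genes, and it was present in Fabp7 and Hopx. That form was chosen after the sequences had been read. The full palindrome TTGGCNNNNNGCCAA was in no member window and in 0.0365% of all windows. The 2 windows with the longer form are shown with that match in capitals. The Fabp7 window lies on the plus strand of GRCm38 at chr10:57784673-57784972 and its match begins at position -55 from the start site. The Hopx window shown lies on the minus strand at chr5:77115074-77115373 and its match begins at position -160. Hopx has another window, at chr5:77095218-77095517, which holds no TTGGC on either strand and is not shown.
Fabp7 promoter window: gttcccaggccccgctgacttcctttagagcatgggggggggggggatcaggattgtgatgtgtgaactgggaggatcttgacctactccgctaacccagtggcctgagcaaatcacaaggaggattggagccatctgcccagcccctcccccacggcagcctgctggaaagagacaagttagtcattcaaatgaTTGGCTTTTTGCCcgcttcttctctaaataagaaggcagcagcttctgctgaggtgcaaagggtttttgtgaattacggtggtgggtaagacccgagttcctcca
Hopx promoter window: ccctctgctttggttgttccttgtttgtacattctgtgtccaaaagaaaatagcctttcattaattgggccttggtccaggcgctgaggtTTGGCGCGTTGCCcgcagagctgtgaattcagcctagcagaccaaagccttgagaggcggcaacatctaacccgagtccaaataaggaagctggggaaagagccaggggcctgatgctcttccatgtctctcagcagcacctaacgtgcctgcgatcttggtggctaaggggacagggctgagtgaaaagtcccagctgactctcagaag
The matched letters are a description of the reference sequence, and binding was not measured in these libraries.

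The libraries held 48045603 to 66538437 reads. Values below are read counts divided by library size and scaled by TMM, a correction for library composition, and are given as CPM. The neuronal genes Tubb3 and Dcx averaged 998 and 604 CPM over the 9 libraries, and the progenitor genes Pax6 and Eomes averaged 162 and 89.3 CPM, so genes of both labelled cell types were present. In sh-Gpc4 the targeted gene Gpc4 averaged 122 CPM against 176 CPM in sh-NT. The groups did not overlap, as was so for 24.0% of all tested genes in this comparison. The Gpc4 difference missed the threshold (log2 fold change of -0.53, edgeR adjusted p = 0.488). Gpc2 averaged 131 CPM in sh-Gpc2 against 189 CPM in sh-NT with overlapping groups (log2 fold change of -0.54, edgeR adjusted p = 0.968). Gpc2 was also at 112 CPM in sh-Gpc4 (log2 fold change of -0.76, edgeR adjusted p = 0.488). By library, Gpc2 held 200, 207 and 161 CPM in sh-NT libraries 1, 2 and 4. It held 167, 145 and 79.6 CPM in sh-Gpc2 libraries 1, 2 and 4. In sh-Gpc4 libraries 1, 3 and 4 it held 168, 70.3 and 96.6 CPM. Its lowest values were thus in sh-Gpc4 library 3 and sh-Gpc2 library 4. Library 3 of sh-Gpc4 and library 4 of sh-Gpc2 stood apart from the other 7 libraries on a first principal component that held 71.6% of the variance. In these libraries, genes in the quartile with the highest GC content stood below those in the lowest quartile, relative to the average library, by a log2 difference of -0.57 and -0.40. Library 4 of sh-Gpc4 lay on the same side with smaller values. It was at 15.8 on that component, against 46.7 and 36.6, with a GC difference of -0.16. The remaining libraries had negative component values and positive GC differences. For each member the value without sh-Gpc4 library 3 and sh-Gpc2 library 4, written as without the outlying libraries, is given beside the full one. Those values still include sh-Gpc4 library 4. Knockdown efficiency per cell was not measured.

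Scaled per kilobase of merged exons, the members spanned a wide range in sh-NT. Fabp7, a fatty acid carrier of radial glia, stood at the top with 522 ± 16.1 CPM per kb (SD, n = 3), and Nfib came next with 126 ± 14.3. Aldoc was at 80.9 ± 4.44, and its 3 libraries did not overlap those of the genes next to it in the order. Nfix (65.5 ± 9.34), Nfia (65.0 ± 14.4), Tnc (48.9 ± 9.32) and Slc1a3 (44.4 ± 1.95 CPM per kb) formed a run in which each gene overlapped the next. Ednrb and Zbtb20 followed at 27.7 ± 1.15 and 22.8 ± 1.49 CPM per kb without overlap. Hopx was last at 0.339 ± 0.0911 CPM per kb. The merged length counts every annotated exon, used in these cells or not, and ran from 1250 bases for Fabp7 to 30730 for Zbtb20. Without length scaling, Zbtb20 averaged 740 CPM over the 9 libraries and Fabp7 693 CPM. The order therefore depends on the annotated lengths.

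Among the NFI genes, then, Nfib had the highest length-scaled level in all 3 groups, at 157 ± 25.7 CPM per kb in sh-Gpc4 and 141 ± 33.9 in sh-Gpc2. The order of the remaining genes moved slightly between groups: Slc1a3 stood above Tnc in both knockdown groups and below it in sh-NT, each time with overlapping libraries. From Nfia down to Zbtb20, every neighbour overlapped the next in both knockdown groups. Fabp7 and Hopx kept the top and bottom places.

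**Figure D1:**
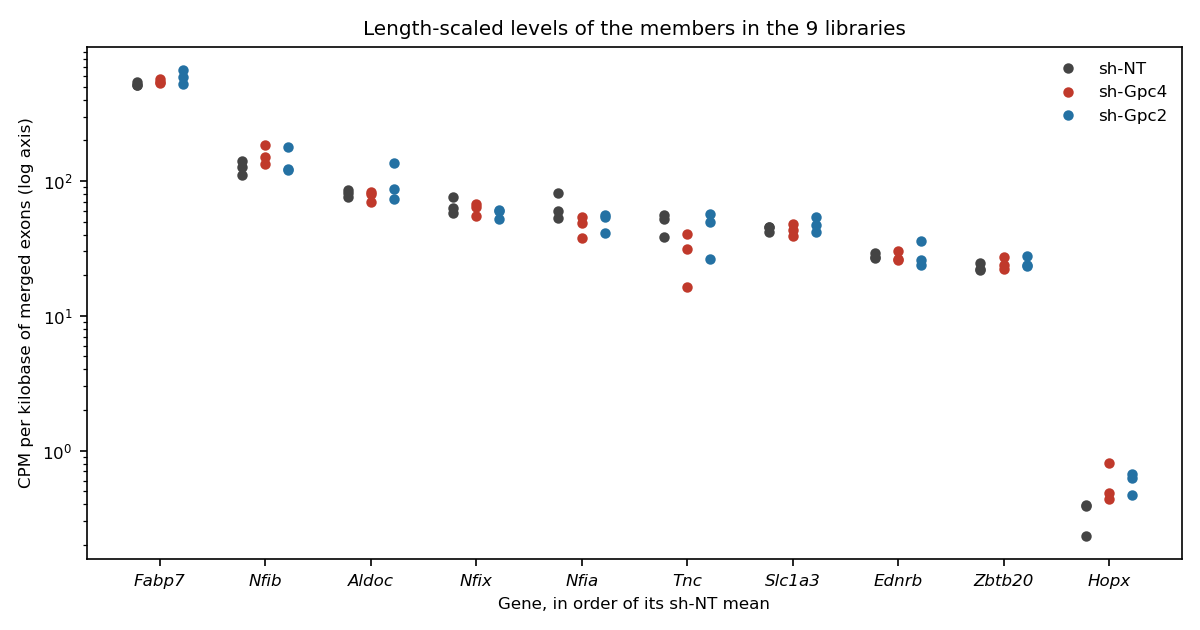
Length-scaled levels (CPM per kilobase of merged exons, log axis) of the 10 genes in each of the 9 libraries, coloured by group and ordered by the sh-NT mean. Fabp7 lies at 510.2 CPM per kb or above in every library, while Hopx stays below 0.807 CPM per kb.

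Apart from Hopx, the genes were abundant, with 5423 reads of Ednrb in its lowest library and 183899 reads of Nfib in its highest. Hopx had 20 to 83 reads per library. Other markers of outer radial glia were uneven, with Fam107a at 0.0604 and Moxd1 at 0.766 CPM on average and Ptprz1, a receptor phosphatase gene that many radial glia carry, at 447 CPM. The 26 astrocyte genes summed to 1837 to 2497 CPM per library and were uneven as well: Apoe and Cst3, which microglia also express, averaged 951 and 220.4 CPM, Ndrg2 181 CPM and Aldh1l1 60.5 CPM, while Aqp4 was at 1.51 CPM and S100b at 0.304 CPM. The gap junction gene Gjb6 had 0 reads in every sh-NT and sh-Gpc2 library.

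Nfia lies on the plus strand of chromosome 4 (97772734 to 98118874, GRCm38). Libraries are given throughout in the order 1, 2, 4 of their column numbers, or 1, 3, 4 where the hairpin is sh-Gpc4. For Nfia, sh-NT held 583, 656 and 884 CPM, sh-Gpc4 held 590.4, 409.6 and 529.6 CPM, and sh-Gpc2 held 604, 593 and 450.3 CPM. All 6 knockdown libraries sat below sh-NT libraries 2 and 4, and each knockdown group overlapped sh-NT through a single sh-NT library, number 1. Group means were 708 ± 157 CPM in sh-NT, 510 ± 92.0 in sh-Gpc4 and 549 ± 85.5 in sh-Gpc2 (SD, n = 3). For sh-Gpc4 against sh-NT the log2 fold change was -0.47 (SE 0.19, 95% interval -0.90 to -0.05, unadjusted p = 0.0324, edgeR adjusted p = 0.488). Without sh-NT library 4, the highest of all, it was -0.29. For sh-Gpc2 against sh-NT it was -0.37 (SE 0.19, edgeR adjusted p = 0.968), and -0.18 without the same sh-NT library. Without the outlying libraries the values were -0.35 and -0.26. Nfia RNA was therefore not shown to differ in either knockdown.

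Nfib, on the minus strand of the same chromosome (82290173 to 82705750), had the most reads of the members. In sh-NT its libraries held 1882, 1664 and 2092 CPM, in sh-Gpc4 2002, 2758 and 2265 CPM, and in sh-Gpc2 1829, 1789 and 2686 CPM. The 2 highest values belong to the libraries that stood apart, sh-Gpc4 library 3 and sh-Gpc2 library 4. The group means were 1879 ± 214, 2342 ± 384 and 2101 ± 507 CPM, and the groups overlapped. The log2 fold change was 0.32 for sh-Gpc4 against sh-NT (SE 0.18, edgeR adjusted p = 0.489) and 0.16 for sh-Gpc2 against sh-NT (SE 0.18, edgeR adjusted p = 0.968). Without the outlying libraries, these values were 0.18 and -0.068.

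The outlying libraries thus held the lowest Nfia and the highest Nfib values, while sh-NT library 4 was the highest sh-NT library for both genes. The ratio of Nfib to Nfia CPM, a description chosen after the values were seen and not tested, was 3.23, 2.53 and 2.37 in sh-NT, 3.39, 6.73 and 4.28 in sh-Gpc4, and 3.03, 3.02 and 5.97 in sh-Gpc2. Its largest values, 6.73 and 5.97, belong to the outlying libraries. GC content was 42.7% for Nfia and 43.3% for Nfib. With the GC trend of each library removed, a step added after seeing the data, the sh-Gpc4 log2 fold changes were -0.53 for Nfia and 0.25 for Nfib. The part of GC content in these values was not tested.

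Nfix, on chromosome 8 (84699876 to 84800344, minus strand), varied less. Levels were 425, 460.5 and 558 CPM for sh-NT, 474, 406 and 496 CPM for sh-Gpc4, and 448, 381 and 441 CPM for sh-Gpc2. Means were 481 ± 68.7, 458 ± 46.8 and 423 ± 37.0 CPM with overlapping groups. Its log2 fold changes of -0.07 (SE 0.12) in sh-Gpc4 and -0.19 (SE 0.12) in sh-Gpc2 missed the threshold, with edgeR adjusted p of 0.800 and 0.968. The 95% intervals allow a change from -0.35 to 0.21 and from -0.46 to 0.09. Without the outlying libraries the fold changes were 0.0019 and -0.23.

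Zbtb20, on chromosome 16 (42875881 to 43642602, plus strand), was among the steadiest members. It was at 754, 670.5 and 678 CPM with sh-NT, 688, 843 and 728 CPM with sh-Gpc4, and 715, 734 and 850.4 CPM with sh-Gpc2. The same libraries that were highest for Nfib, sh-Gpc4 library 3 and sh-Gpc2 library 4, were highest here, and the groups overlapped. The log2 fold changes of 0.10 (SE 0.11, 95% interval -0.13 to 0.34) and 0.13 (SE 0.11, 95% interval -0.11 to 0.37) had edgeR adjusted p of 0.649 and 0.968. They were 0.0068 and 0.034 without the outlying libraries.

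Hopx, on the minus strand of chromosome 5 (77086988 to 77115121), was the only member whose groups separated. In sh-NT it stood at 0.595, 0.591 and 0.354 CPM (37, 35 and 20 reads). The sh-Gpc4 libraries held 0.659, 0.735 and 1.22 CPM (33, 49 and 83 reads), and the sh-Gpc2 libraries held 1.02, 0.952 and 0.712 CPM (58, 59 and 35 reads). All 6 knockdown libraries lay above all 3 sh-NT libraries in CPM, while in reads the groups overlapped. The log2 fold changes were 0.77 (SE 0.31, 95% interval 0.08 to 1.45, unadjusted p = 0.0321) in sh-Gpc4 and 0.80 (SE 0.31, 95% interval 0.11 to 1.49, unadjusted p = 0.0271) in sh-Gpc2. Neither passed the threshold, with edgeR adjusted p of 0.488 and 0.968, and the two-sided exact permutation p was 0.1 in both, the smallest that 3 against 3 allows. These differences share the same 3 sh-NT libraries. Leaving out sh-Gpc4 library 4 took the first to 0.44, and without the outlying libraries they were 0.88 and 0.92. An antisense gene, Hopxos, overlaps Hopx and had 62.8% as many reads. Its values were 0.290, 0.371 and 0.159 CPM in sh-NT, 0.579, 0.495 and 0.707 in sh-Gpc4, and 0.777, 0.500 and 0.468 in sh-Gpc2, again with all 6 knockdown libraries above sh-NT. The strand setting of the counting is not named in the sources used here, and overlap of the exons of these genes was not examined. Reads of Hopx and Hopxos could therefore be mixed.

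**Figure D2:**
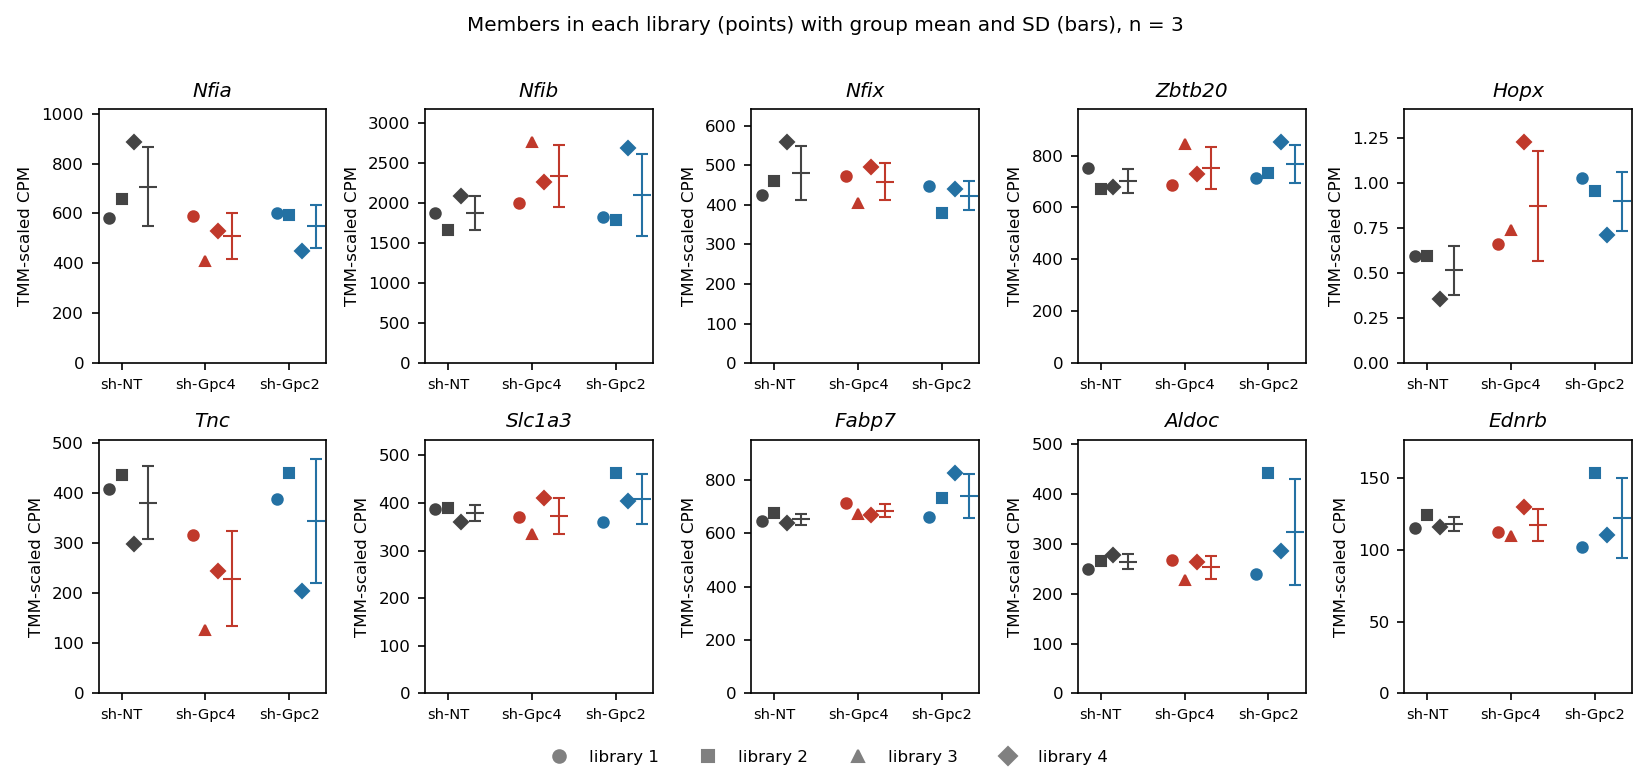
TMM-scaled CPM of each of the 10 genes by group, with a point per library, a marker shape per library number, and bars for the group mean and SD (n = 3); every axis starts at 0. Hopx is the panel in which all 6 knockdown points lie above the 3 sh-NT points, and Tnc and Nfia have their lowest points in sh-Gpc4 library 3.

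Among the radial glia and astrocyte products, Tnc had the widest spread. It encodes tenascin C, a matrix glycoprotein of the stem cell zone, and lies on the minus strand of chromosome 4 (63959785 to 64047015). Control libraries (sh-NT) held 406, 435 and 298 CPM. Those of sh-Gpc4 held 315, 127 and 245 CPM, and those of sh-Gpc2 held 387, 439.7 and 203 CPM. The lowest values were in sh-Gpc4 library 3 and sh-Gpc2 library 4, the libraries that stood apart, and sh-Gpc4 overlapped sh-NT only through its library 1. Means were 380 ± 72.5, 229 ± 95.4 and 343 ± 124 CPM. The log2 fold change of -0.73 in sh-Gpc4 (SE 0.35, 95% interval -1.52 to 0.06) missed the threshold with an edgeR adjusted p of 0.488, and it was -0.43 without sh-Gpc4 library 3. In sh-Gpc2 it was -0.15 (SE 0.35, edgeR adjusted p = 0.970), and 0.12 without sh-Gpc2 library 4. With both outlying libraries left out the values were -0.45 and 0.11. In whole sorted populations such as these, fewer cells of a type and less RNA per cell cannot be told apart.

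Slc1a3, the glial glutamate transporter gene, was steady. Values were 387, 390.0 and 359.6 CPM for sh-NT, 370.4, 335 and 410.1 CPM for sh-Gpc4, and 359, 463 and 404 CPM for sh-Gpc2. The groups overlapped, with log2 fold changes of -0.03 (SE 0.11, edgeR adjusted p = 0.923) and 0.11 (SE 0.11, edgeR adjusted p = 0.968), or 0.035 and 0.10 without the outlying libraries. It lies on chromosome 15 (8634124 to 8710764, minus strand).

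Fabp7 lies on chromosome 10 (57784881 to 57788450, plus strand). In sh-NT it held 645, 676 and 638 CPM, in sh-Gpc4 713, 674 and 670.4 CPM, and in sh-Gpc2 659.7, 733 and 827 CPM. The groups overlapped, and the highest library was sh-Gpc2 library 4. Its log2 fold changes were 0.07 (SE 0.09, 95% interval -0.14 to 0.28) in sh-Gpc4 and 0.18 (SE 0.09, 95% interval -0.03 to 0.39) in sh-Gpc2, with edgeR adjusted p of 0.724 and 0.968. They were 0.075 and 0.079 without the outlying libraries.

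Aldoc encodes the brain form of the glycolytic enzyme aldolase and lies on chromosome 11 (78322968 to 78327781, plus strand). It was at 249, 266 and 278 CPM with sh-NT, 268, 227 and 263 CPM with sh-Gpc4, and 240.0, 442 and 286 CPM with sh-Gpc2. A single library, sh-Gpc2 library 2, stood far above the rest. The log2 fold change was 0.29 in sh-Gpc2 against sh-NT (SE 0.19, edgeR adjusted p = 0.968) and -0.0047 without that library, and it was -0.06 in sh-Gpc4 (SE 0.19, edgeR adjusted p = 0.889). Without the outlying libraries the values were 0.35 in sh-Gpc2 and -0.0011 in sh-Gpc4.

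Ednrb, the endothelin receptor gene on chromosome 14 (103814625 to 103844402, minus strand), stood at 115, 124 and 116 CPM with sh-NT, 112, 109.8 and 129.7 CPM with sh-Gpc4, and 102, 153 and 110.3 CPM with sh-Gpc2. Its highest value was again in sh-Gpc2 library 2. The log2 fold changes were -0.01 (SE 0.15) and 0.05 (SE 0.15), with edgeR adjusted p of 0.974 and 0.976. They were 0.024 and 0.097 with the outlying libraries left out, and the second was -0.15 without sh-Gpc2 library 2.

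The same library was the highest of the 9 for Tnc and Slc1a3 as well. It also had the highest value of the astrocyte filament gene Gfap, 96.8 CPM against 0.810 to 16.4 CPM elsewhere, of the connexin gene Gja1 (66.2 CPM) and of the gliogenic factor Sox9 (455 CPM). Its sum over 18 radial glia genes was 4132 CPM against 2652 to 3044 CPM in the other libraries. The astrocyte list went both ways. Its summed level, in which Apoe weighs most, was 1837 CPM, the lowest of the 9, against 1883 to 2497 CPM elsewhere. The mean centred log2 CPM of that list, which weighs each gene alike, was the highest of the 9 at 0.37. The summed level of 15 microglia genes was 639 CPM there, the lowest of the 9, against up to 2395 CPM in a sh-Gpc4 library. The part of these shifts in the member values was not tested.

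Taking the members by comparison, 0 of 10 passed the edgeR adjusted p threshold of 0.05 in sh-Gpc4 against sh-NT, where 0% of all tested genes passed. At an unadjusted p under 0.05 there were 2, Nfia (lower) and Hopx (higher), against 9.57% of all tested genes. Hopx alone had groups that did not overlap, against 24.0% of all genes. The fitted change was positive for 4 members and negative for 6, with a median of -0.02 against 0.02 over all genes. Without sh-Gpc4 library 3 it was positive for 8 and negative for 2, with a median of 0.03. Separation of the groups was thus common among all genes in this comparison, and 1 of 10 members is below that share. By the DESeq2 Wald test 46 of all tested genes passed, none of them a member.

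In sh-Gpc2 against sh-NT the adjusted test again called 0 of 10 members and 0% of genes. Hopx was the only member with an unadjusted p under 0.05, against 2.56% of genes, and the only one whose groups did not overlap, against 7.70%. The change was positive for 7 members and negative for 3, with a median of 0.12 against 0.00313 over all genes. Without sh-Gpc2 library 2 it was positive for 5 and negative for 5, with a median of 0.0029. No member then had an unadjusted p under 0.05, against 5.22% of genes.

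Between the knockdowns, sh-Gpc4 against sh-Gpc2, 0 of 10 members and 0% of genes passed the adjusted threshold. None had an unadjusted p under 0.05, against 2.89% of genes, and no member's groups were free of overlap, against 5.50%. The largest differences were those of Tnc (log2 fold change of -0.59, SE 0.35) and Aldoc (-0.35, SE 0.19), with an edgeR adjusted p of 0.966 for both, and Aldoc was at -0.060 without sh-Gpc2 library 2. Hopx differed by -0.03 (SE 0.29, 95% interval -0.70 to 0.63), an interval that leaves room for a sizeable difference in either direction. Nfia differed by -0.11 (SE 0.19) and Nfib by 0.16 (SE 0.18). Without the outlying libraries, Tnc differed by -0.56 with an unadjusted edgeR p of 0.0167 and an adjusted p of 0.618. In that setting 7.61% of all genes had an unadjusted p under 0.05.

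**Figure D3:**
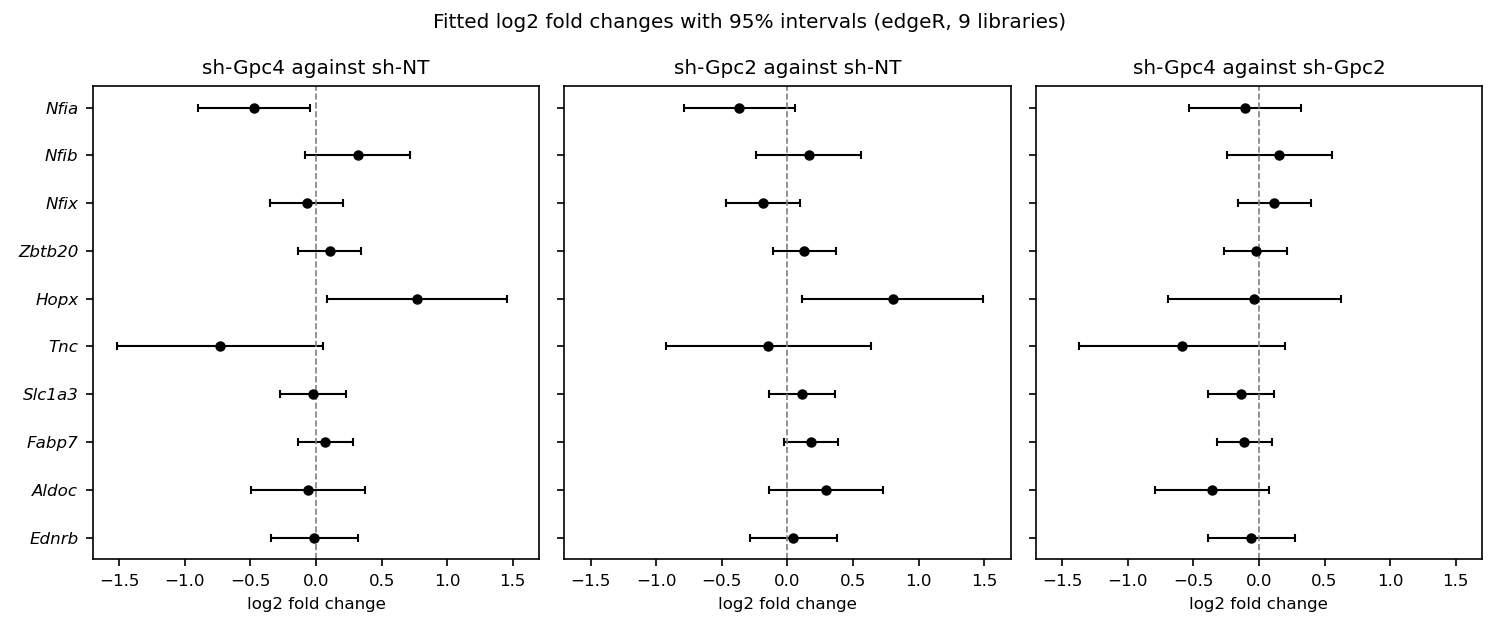
Fitted log2 fold changes of the 10 genes with 95% intervals in the 3 comparisons (edgeR, 9 libraries), with the dashed line at no change. The intervals of Nfia and Hopx in sh-Gpc4 against sh-NT and of Hopx in sh-Gpc2 against sh-NT lie to a single side of 0, and all others cross it; no adjusted p reached the threshold.

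The members varied to very different extents across the 9 libraries. From lowest to highest library, Tnc spanned 3.47-fold, Hopx 3.45-fold, Nfia 2.16-fold, Aldoc 1.95-fold and Nfib 1.66-fold, whereas Fabp7 spanned 1.30-fold and Zbtb20 1.27-fold. Among 11968 abundant genes, 94.6% had a smaller SD of log2 CPM than Tnc, 80.9% than Nfia, 76.9% than Aldoc and 74.3% than Nfib. Fabp7 was steadier than most, since 26.0% had a smaller SD. Hopx was too low to be placed in this order. The summed CPM of the 10 genes, in which Nfib weighs most, was 5342 to 5901 in sh-NT, 5533 to 5890 in sh-Gpc4 and 5344 to 6260 in sh-Gpc2.

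The libraries that stood apart, sh-Gpc4 library 3 and sh-Gpc2 library 4, were together the 2 highest for Nfib and Zbtb20 and the 2 lowest for Nfia and Tnc. The same pair was the 2 highest for 17.7% and the 2 lowest for 29.4% of the abundant genes, so this pattern is widespread in these data. Of the 4, Nfia, Nfib and Zbtb20 have a GC content of 42.7%, 43.3% and 43.0%, and Tnc has 52.5%. The part of GC content in this pattern was not tested.

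**Figure D4:**
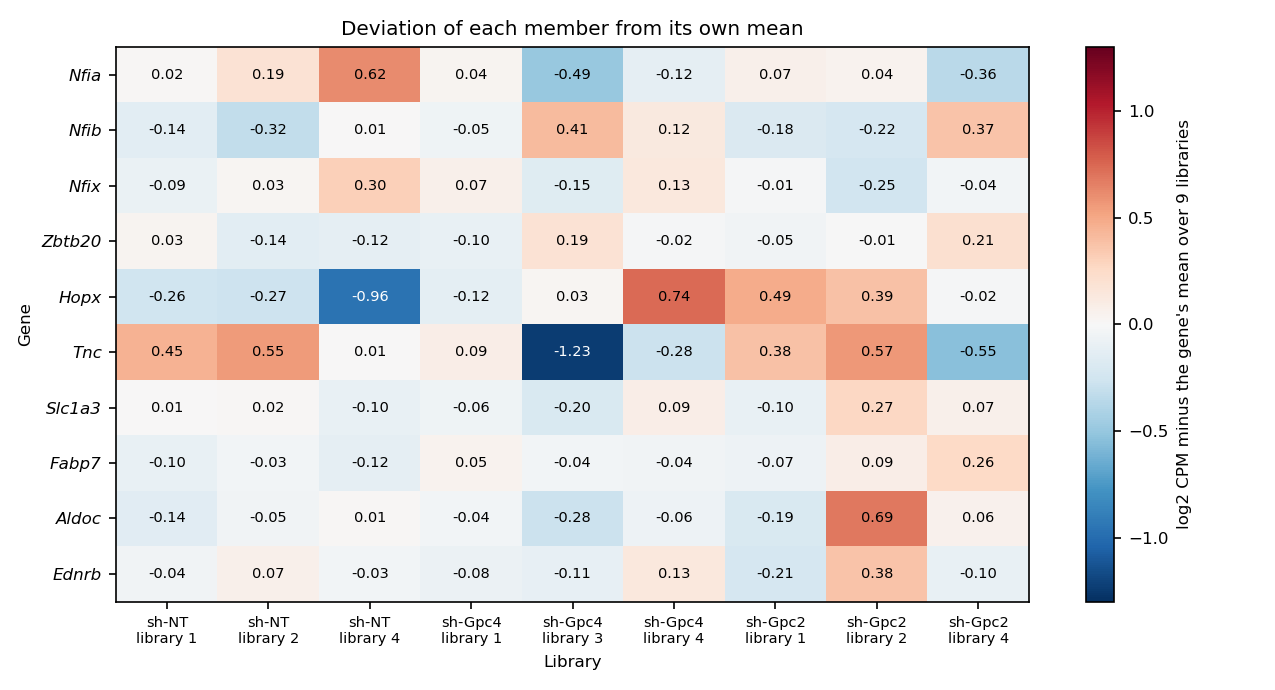
Heat map of each gene's log2 CPM minus its own mean over the 9 libraries, with genes as rows and libraries as columns. Nfib and Zbtb20 are high and Nfia and Tnc low in sh-Gpc4 library 3 and sh-Gpc2 library 4, and Tnc, Slc1a3, Aldoc and Ednrb are highest in sh-Gpc2 library 2.

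For each member, the genes with the most similar profile over the 9 libraries were sought among 10181 of the 11968 abundant genes, those with a symbol other than a predicted-gene name and outside the members, by the root mean square difference of mean-centred log2 CPM. Nfib was followed most closely by the phosphatase gene Ppm1a (0.0378), the BMP receptor gene Bmpr2 (0.0412) and Khdrbs3 (0.0447). Nearest to Nfia were Zfp575 (0.0768), Lbh (0.0769) and Klhl15 (0.0840), and nearest to Nfix was the adhesion gene Chl1 (0.0596). Zbtb20 lay nearest to Yipf5 (0.0473), Slc1a3 to Tmem132b (0.0445) and Ednrb to Fstl1 (0.0543). Fabp7 ran with the ribosomal protein genes Rpl13 (0.0550) and Rps19 (0.0584) and with Dbi (0.0589), the acyl-CoA binding protein gene that is also in the radial glia list. Aldoc ran with the replication licensing gene Cdc6, with Gja1 and with Sod2 (0.10 each). For Tnc the nearest genes were Ccdc157, Tspan18 and Rbm19, at 0.117 to 0.119. Hopx had no close match, its nearest gene being Dapp1 at 0.319. The points share libraries, depth and composition, so these are descriptions.

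The wider gliogenic programme was followed through lists of genes by role, and edgeR called 0 genes of any of them in any comparison by adjusted p. Of 23 tested genes of the gliogenic switch other than the members, mostly transcription and chromatin factors, 9 had a positive and 14 a negative change in sh-Gpc4 against sh-NT, with a median of -0.16. At an unadjusted p under 0.05 there were 4, all lower, against 9.57% of all genes. Nfic, the remaining NFI gene, was at 32.7 CPM against 58.3 in sh-NT (log2 fold change of -0.84, SE 0.32), the H3K27 demethylase gene Kdm6b at 109 against 148 (-0.44, SE 0.17), the radial glia regulator Prdm16 at 71.9 against 120.2 (-0.74, SE 0.30) and Sox8 at 11.8 against 21.6 (-0.88, SE 0.39). In each of these the sh-Gpc4 libraries lay below all sh-NT libraries, a separation seen in 24.0% of all genes, and the edgeR adjusted p was 0.488. Without sh-Gpc4 library 3 the list had a median of -0.10 and 0 genes at an unadjusted p under 0.05, against 3.85% of all genes. Without both outlying libraries it had a median of -0.12 and 5 such genes, all lower, against 9.77% of all genes. In sh-Gpc2 the list had 7 positive and 16 negative changes with a median of -0.07. Kdm6b, at 113 CPM (-0.39, SE 0.17), was the only one with an unadjusted p under 0.05, against 2.56% of all genes. Nfic and Prdm16 were at 42.5 and 92.8 CPM there, overlapping sh-NT.

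Ligands, receptors and transducers that drive gliogenesis, such as the cytokine, BMP and Notch routes, had 26 tested genes. In sh-Gpc4 against sh-NT, 10 changes were positive and 16 negative, with a median of -0.21 and with 4 genes at an unadjusted p under 0.05, all lower, against 9.57% of all genes. They were the cytokine gene Ctf1 (0.332 against 0.853 CPM), the BMP effector Smad5 (109 against 147 CPM), the shared cytokine receptor Il6st (26.5 against 39.3 CPM) and the receptor Notch1 (64.1 against 103 CPM). The mean centred log2 CPM of the list was -0.02, -0.40 and -0.08 in the sh-Gpc4 libraries, lowest in the outlying library 3. Without that library the median was -0.10 and 1 gene had an unadjusted p under 0.05, against 3.85% of all genes. Without both outlying libraries the median was -0.12 and 7 genes had one, all lower, against 9.77% of all genes. In sh-Gpc2 against sh-NT, 12 were positive and 14 negative with a median of -0.02. None had an unadjusted p under 0.05, against 2.56% of all genes. Between the knockdowns the median was -0.23, and -0.07 without sh-Gpc2 library 2. There the growth factor receptor gene Egfr was at 6.92 CPM in sh-Gpc4 against 13.2 in sh-Gpc2 (log2 fold change of -0.93, SE 0.33), and the cytokine receptor gene Lifr at 24.2 against 18.7 CPM (0.37, SE 0.16), both with an edgeR adjusted p of 0.966.

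Of 25 tested astrocyte genes, 8 were positive and 17 negative in sh-Gpc4 against sh-NT (median -0.15). The list's mean centred log2 CPM was -0.08, -0.55 and 0.04 in the sh-Gpc4 libraries, so the outlying library 3 was the low one, and without it 11 were positive and 14 negative (median -0.06). At an unadjusted p under 0.05, 1 gene was higher and 3 were lower, against 9.57% of all genes. The growth factor carrier gene Fgfbp3 was at 34.0 CPM against 79.6 in sh-NT (log2 fold change of -1.23, SE 0.40). Atp1b2 was at 59.1 against 86.5 CPM (-0.55, SE 0.23). Both were without overlap, a separation seen in 24.0% of all genes. Slc6a11 was at 2.13 against 3.74 CPM (-0.81, SE 0.29) and the BMP target Id3 at 7.95 against 3.70 CPM (1.10, SE 0.42), both with overlap. The edgeR adjusted p was 0.488 for each. In sh-Gpc2 against sh-NT, 14 were positive and 11 negative (median 0.04), but 8 and 17 without sh-Gpc2 library 2 (median -0.16). Between the knockdowns 7 were positive and 18 negative (median -0.24), and Gfap, at 1.56 CPM in sh-Gpc4 against 34.7 in sh-Gpc2, rests on sh-Gpc2 library 2. Without that library the median was -0.10.

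The outer radial glia list had 8 positive and 8 negative changes among 16 tested genes in both knockdown comparisons, with medians of -0.06 in sh-Gpc4 and -0.0028 in sh-Gpc2. Without sh-Gpc2 library 2 the sh-Gpc2 median was -0.13, with 5 positive and 11 negative. Its lowest p in sh-Gpc4 belonged to Sdc3, a syndecan gene at 50.3 CPM against 79.4 in sh-NT (log2 fold change of -0.66, SE 0.26, edgeR adjusted p = 0.488). In sh-Gpc2 it belonged to Lgals3, a galectin gene that microglia also express, at 15.4 CPM against 10.5 (0.55, SE 0.22, edgeR adjusted p = 0.968). Of 18 tested radial glia genes, 4 were positive and 14 negative in sh-Gpc4 against sh-NT (median -0.07), and 14 positive and 4 negative in sh-Gpc2 against sh-NT (median 0.07). The list's mean centred log2 CPM was 0.06, 0.38 and -0.22 in sh-Gpc2 libraries 1, 2 and 4. Without library 2 the sh-Gpc2 comparison had 6 positive and 12 negative (median -0.08), and without library 4 it had 17 positive and 1 negative (median 0.13). Leaving out sh-Gpc4 library 3 gave 6 positive and 12 negative in sh-Gpc4 (median -0.02). The nuclear receptor gene Nr2e1 was at 37.7 CPM in sh-Gpc4 against 59.2 in sh-NT (-0.65, SE 0.21, edgeR adjusted p = 0.488). Its groups did not overlap, as in 24.0% of all genes. Nr2e1 was the only gene of the radial glia list with an unadjusted p under 0.05 in that comparison, against 9.57% of all genes. Between the knockdowns all 18 were negative with a median of -0.17. Without sh-Gpc2 library 2, which had the highest sum of these genes, 8 were positive and 10 negative (median -0.04).

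Genes of other cell types were present at differing levels. The summed level of 15 microglia genes was 1195 to 1853 CPM in sh-NT, 1690 to 2395 in sh-Gpc4 and 639 to 2232 in sh-Gpc2, so RNA of a cell type outside the labelled progenitors and neurons was measured in every library. Lists for oligodendrocyte precursors (8 genes, 23.6 to 35.0 CPM), endothelial cells (13 genes, 69.0 to 126 CPM), mural cells (11 genes, 11.4 to 31.5 CPM) and meninges (11 genes, 8.79 to 19.9 CPM) were low in all libraries. The part of these cells in the member values was not tested. Some genes on the opposite strand overlap members by their start and end coordinates. G430095P16Rik had 16.1% as many reads as Nfix, 8030451A03Rik 11.2% as many as Tnc, and E130114P18Rik 8.02% as many as Nfia. Overlap of their exons was not examined and the strand setting is not named. Whether such reads enter the member counts is therefore not known.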

How the data were processed

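Raw counts of reads per gene were deposited; the authors made them with featureCounts of the Subread package on GRCm38 (mm10), per the submitters' processing notes. The sources used here do not name the aligner, annotation release, versions or strand setting. RNA came from a kit for small samples and libraries from a low-input kit that amplifies cDNA, per the labels' protocols, so a count cannot separate PCR duplicates. Column names give the group and a number that is not the replicate number of the sample titles; they are used here as library numbers. GENCODE M21 gave symbols to 51486 of the 78275 IDs (65.8%), which hold 96.8% to 97.0% of reads, and gave coordinates and merged exon lengths. The promoter windows are RefSeq's, of GRCm38.p6.

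Quasi-likelihood models of edgeR 4.0.16 (R 4.3.3), tested on simulated data first, used all 9 libraries, TMM scaling and edgeR's own filter for low counts (27773 genes left). Benjamini-Hochberg adjustment ran across those genes in each comparison, with a threshold of 0.05. SE values come from the test's F, and intervals use its degrees of freedom (median 9.50). Abundant genes have a mean log2 CPM above 3. Alternatives used DESeq2 1.42.0, limma 3.58.1, other filters and scalings, only the groups compared, and each library left out; leaving out a pair of libraries and removing a GC trend (22126 genes with a GC value) were added after seeing the data, as were the gene lists without the outlying libraries or sh-Gpc2 library 2. Counts of replicate pairs differed by more than counting error (chi-square over its degrees of freedom ran from 8.56 to 93.4), so none was merged. The members and lists were chosen with earlier results of these data known. Genes named are the members, the targeted genes, up to 4 genes per list and comparison with the smallest p, up to 3 nearest genes per member, and markers of cell types; Hopxos and other overlapping genes, Gfap, Gja1 and Sox9 were added after their values were seen.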

Additional observations from a re-analysis of the deposited data

How the results depend on the processing

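No member passed the threshold in any of the 19 alternatives, whatever the comparison; the smallest adjusted p was 0.0590, for Hopx in sh-Gpc4 against sh-NT with limma voom. The number of all genes called was 0 except with the DESeq2 Wald test in sh-Gpc4 against sh-NT, which called 46 (13 higher, 33 lower). In sh-Gpc4 against sh-NT, Nfia, Nfib, Tnc and Hopx kept their sign throughout, as did Nfia, Zbtb20, Slc1a3, Fabp7 and Hopx in sh-Gpc2 against sh-NT; the filter of 5 CPM in 3 libraries removes Hopx. Of the member values, 52 changed sign and 515 did not, and the cause was not tested.

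For sh-Gpc4 against sh-NT, voom gave Nfix 0.081, Slc1a3 0.034, Aldoc 0.0035 and Ednrb 0.065. Scaling to the 18 radial glia genes, which moves the median of all genes to 0.22, gave Nfix 0.11, Slc1a3 0.16, Aldoc 0.12 and Ednrb 0.18, all below that shift. Without sh-Gpc4 library 3 and sh-Gpc2 library 4, Nfix was 0.0019, Slc1a3 0.035 and Ednrb 0.024. Removing the GC trend gave Nfix 0.26, Fabp7 -0.0015 and Aldoc 0.052. For sh-Gpc2 against sh-NT, Nfib was -0.068 and Tnc 0.11 without the same libraries, and Nfix 0.016 with the GC trend removed. For sh-Gpc4 against sh-Gpc2, voom gave Hopx 0.17 and Ednrb 0.036, and radial glia scaling, with a median of all genes of 0.19, gave Nfia 0.093, Zbtb20 0.15, Slc1a3 0.056, Fabp7 0.062, Hopx 0.17 and Ednrb 0.16.

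Leaving out a single library turned the sign in these ranges: in sh-Gpc4 against sh-NT, Ednrb -0.092 to 0.043, Nfix -0.15 to 0.044, Slc1a3 -0.10 to 0.053 and Aldoc -0.11 to 0.016; in sh-Gpc2 against sh-NT, Aldoc -0.0047 to 0.47 and Ednrb -0.15 to 0.16 (turned by sh-Gpc2 library 2), Nfib -0.052 to 0.26 and Tnc -0.36 to 0.12 (by sh-Gpc2 library 4); in sh-Gpc4 against sh-Gpc2, Zbtb20 -0.12 to 0.057, Hopx -0.36 to 0.12, Nfia -0.23 to 0.029 and Ednrb -0.17 to 0.14.

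Whether library numbers pair the libraries was not settled. Deviations from the group mean correlated from -0.10 to 0.68 between same-numbered libraries of different groups. Between differently numbered libraries they correlated from -0.87 to 0.83. Number 3 occurs only in sh-Gpc4, so a block by number gives the outlying sh-Gpc4 library 3 a term of its own. That library then carries no weight in the sh-Gpc4 comparisons, which rest on sh-Gpc4 libraries 1 and 4. A replicate block by library number called 0 genes in each comparison. It gave Zbtb20 -0.018, Slc1a3 0.10, Aldoc 0.13, Ednrb 0.13, Tnc -0.27 and Nfib 0.09 in sh-Gpc4 against sh-NT, and Nfia 0.032, Nfib -0.053, Hopx 0.17 and Ednrb 0.11 in sh-Gpc4 against sh-Gpc2. Depth limits Hopx, with 20 reads in its lowest library.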
